A study of Mus musculus with 6 samples.

Results

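The fatty acid handling genes described here carry a fatty acid from the extracellular space to its activated, CoA-bound form, and comprise 4 genes of release and uptake (*Lpl*, *Cd36*, *Slc27a1* and *Slc27a4*), 3 genes of intracellular binding (*Fabp3*, *Fabp4* and *Fabp5*) and 3 genes of activation (*Acsl1*, *Acsl3* and *Acsl5*). They were taken by gene name from the tables of the 6 libraries, and all 10 were found among the 56884 gene IDs quantified and were among the 15426 genes tested. RNA-seq was performed on a stromal vascular fraction (SVF) cell line from mouse subcutaneous white adipose tissue (scWAT) that overexpressed PPARγ2 with lysine 382 replaced by glutamine, which mimics acetylation (K382Q), or by arginine, which mimics the deacetylated residue (K382R). All cells were harvested on day 2 of beige adipocyte differentiation, in medium with the PPARγ agonist rosiglitazone at 0.5 μM, T3 at 1 nM, insulin at 5 μg/mL, dexamethasone at 2 μg/mL, indomethacin at 125 μM and the phosphodiesterase inhibitor IBMX at 500 μM. Each mutant was brought into the immortalized line by a puromycin-selected retroviral vector, so that both groups carried a transgene beside the endogenous *Pparg* gene, and the effect of the mutation cannot be told apart from that of the stable line that carried it. The comparison was between 3 PPARγ2 K382Q libraries and 3 PPARγ2 K382R libraries, which the labels number as biological replicates without naming separate cultures, and p-values therefore measure the spread between these libraries only. Cells with wild-type PPARγ2 or without a transgene were not analysed here.

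Adipocytes take fatty acids from circulating lipoproteins and albumin. LPL frees them from triglycerides, CD36 and the SLC27A transport proteins bring them across the plasma membrane, FABP proteins carry them through the cytosol, and the long-chain acyl-CoA synthetases (ACSL) join them to CoA, after which they can be esterified for storage or oxidized. Many of these genes, *Fabp4*, *Cd36*, *Lpl* and *Slc27a1* among them, are textbook PPARγ targets in fat cells, and each family holds paralogs that differ in the tissues that use them.

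Expression was given as TPM, a transcript level per length that has the same sum in each library. The aligned sequence behind a library, estimated from the ratio of coverage to FPKM, was 5.952 to 7.5 Gb in the PPARγ2 K382Q libraries and 6.526 to 8.154 Gb in the PPARγ2 K382R libraries. The median log2 fold change over all tested genes was -0.14, which median-ratio scaling of the libraries moved by 0.14. Transcripts of the mitochondrial genome took 4.09 to 4.96% of TPM with PPARγ2 K382Q against 2.66 to 2.80% with PPARγ2 K382R. The summed TPM of 8 adipocyte markers was 2899 to 3117 in PPARγ2 K382Q-overexpressing cells against 3507 to 3556, with 2 of 7 tested markers higher (*Cfd* and *Retn*), 3 lower (*Adipoq*, *Cebpa* and *Pparg*) and *Lep* listed at 0 in every library. Of all tested genes, 11.1% were higher and 36.9% lower at a limma adjusted p under 0.05, so 3 lower of 7 was near that share. Reads from the transgene and from the endogenous gene cannot be told apart in the *Pparg* level, which was 1104 to 1333 TPM against 1590 to 1632 TPM. *Pparg* was the most abundant of the 8 adipocyte markers and differed most in mean TPM, so their sum and its gap may hold transgene reads. The summed level of 6 progenitor markers was 463 to 509 TPM against 774 to 811 TPM, nearly all of it from *Ly6a* at 450 to 498 TPM against 752 to 786 TPM. All 4 progenitor markers that were tested were lower in PPARγ2 K382Q-overexpressing cells, where 36.9% of all tested genes were. Of the genes used by the study to tell white and beige from brown fat cells, *Hoxc9*, a white and beige marker, was lower at 16.8 to 18.9 TPM against 25.3 to 25.9 TPM (log2 fold change -0.51, limma adjusted p = 0.000195), and the brown markers *Zic1* and *Meox1* were listed at 0 in every library. The part of these marker differences in the results below was not tested, and in bulk RNA fewer cells of a type and less RNA per cell cannot be told apart. Of other cells that use *Cd36*, *Lpl*, *Fabp3* or *Fabp4*, endothelial cells left little trace, with 6 of 7 markers under 0.5 TPM in every library, *Emcn* at 0 and a sum of 1.65 to 2.25 TPM against 1.71 to 1.94 TPM. The 7 leukocyte markers summed to 11.1 to 12.6 TPM against 12.8 to 15.7 TPM, nearly all of it from *Cd14* and *Cd68*, with *Adgre1* at 0. The 5 muscle markers summed to 2.55 to 3.55 TPM against 4.96 to 6.44 TPM, with *Myod1* and *Myog* at 0. Most of that sum was *Acta1*, at 2.21 to 2.97 TPM against 4.59 to 5.76 TPM (log2 fold change -0.94, limma adjusted p = 0.000836).

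The fatty acid handling genes did not move in one direction. In PPARγ2 K382Q-overexpressing cells, *Slc27a1* and *Fabp3* were several-fold higher, *Acsl3*, *Cd36* and *Fabp4* were modestly higher, and *Lpl*, *Fabp5*, *Acsl5* and *Acsl1* were modestly lower than in PPARγ2 K382R-overexpressing cells. With limma on log2(TPM + 0.5) and Benjamini-Hochberg adjustment over all 15426 genes, 5 of the 10 genes were higher at an adjusted p under 0.05, where 11.1% of all tested genes were, and 4 of 10 were lower, where 36.9% of all tested genes were, so that 9 of 10 were called against 48.1% in either direction. With median-ratio scaling 6 were higher and 3 lower, beside 19.9% and 20.4% of all tested genes, and with quantile normalization 5 and 4, beside 19.1% and 21%. At a fold over 2 as well, the threshold for DEGs, 2 of the 10 genes were called and both were higher, against 1.27% of all tested genes called higher, 2.61% called lower and 3.88% called in either direction. The TPM ranges of the 2 groups did not overlap for any of the 10 genes, with 6 genes higher and 4 lower, which was also so for 57% of all tested genes, 14.1% higher and 42.8% lower. The median log2 fold change of the 10 genes was 0.22.

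**Figure D1:**
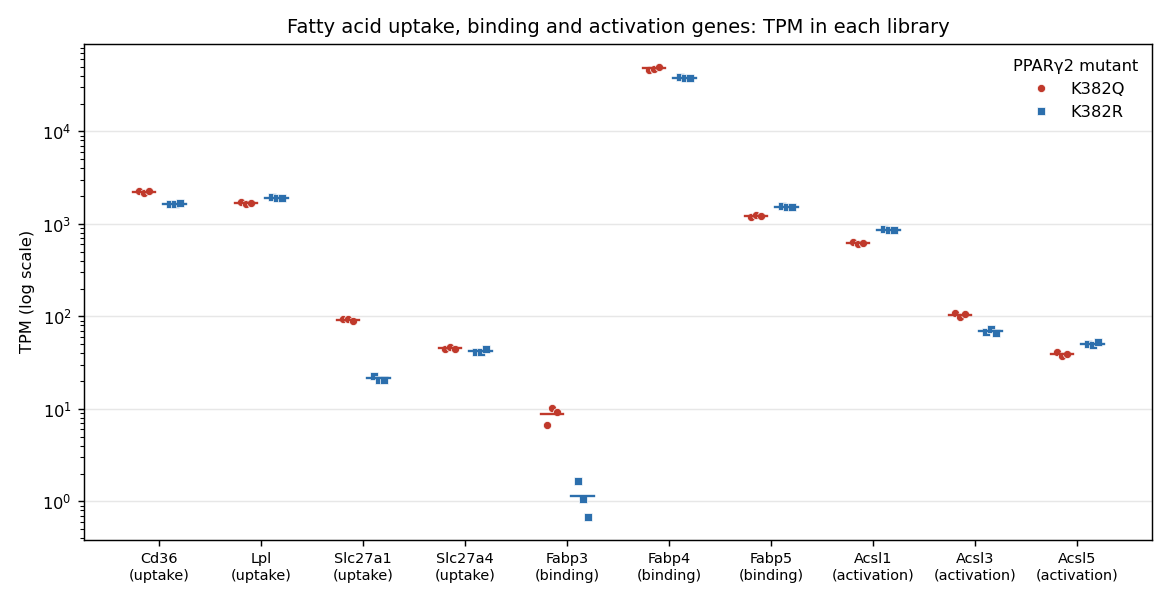
TPM of each of the 10 genes in each library on a log scale (points, PPARγ2 K382Q in red circles and PPARγ2 K382R in blue squares, 3 libraries each; bars, group means). *Fabp4* lies between 37390 and 50292 TPM, *Fabp3* is the lowest gene in both groups, and the widest gaps between groups are those of *Fabp3* and *Slc27a1*.

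**Figure D2:**
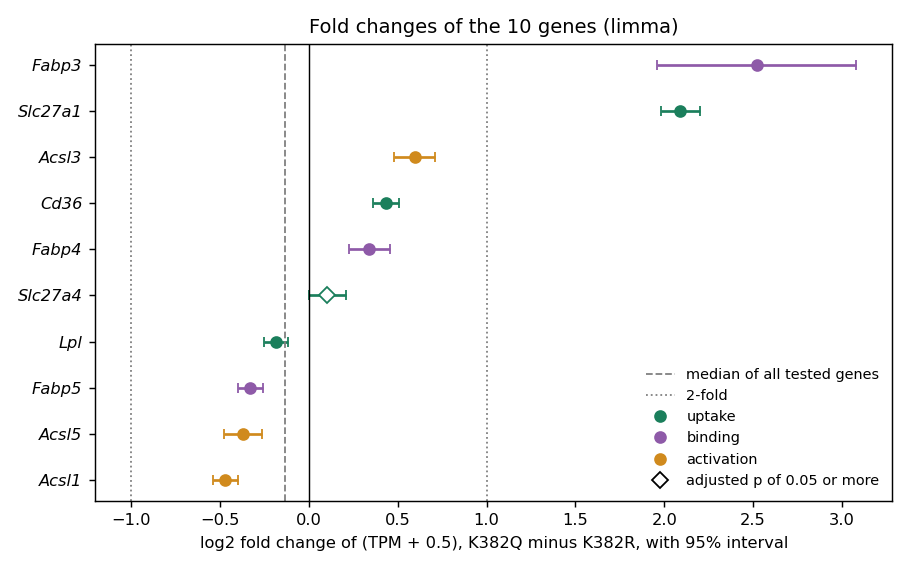
log2 fold change of (TPM + 0.5) in PPARγ2 K382Q- over PPARγ2 K382R-overexpressing cells from limma, with 95% confidence intervals, coloured by role. The genes run from *Fabp3* at 2.52 to *Acsl1* at -0.47, and each role holds genes on both sides of 0.

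Among the genes of release and uptake, the largest fold change was in a transport protein. *Lpl* (ENSMUSG00000015568.17, GRCm39 chr8:69333143-69360100, plus strand) encodes the secreted lipase that hydrolyses lipoprotein triglycerides at the capillary wall. It was at 1723, 1654 and 1697 TPM in PPARγ2 K382Q replicates 1, 2 and 3 and at 1931, 1928 and 1910 TPM in PPARγ2 K382R replicates 1, 2 and 3. All 3 PPARγ2 K382Q libraries were below all 3 PPARγ2 K382R libraries. The means were 1691 ± 34.7 and 1923 ± 11.2 TPM (SD, n = 3 each), a log2 fold change of -0.19 (SE 0.0280, limma adjusted p = 0.00107). That was -0.05 relative to the median of all genes, and with median-ratio scaling the value was -0.03 with an adjusted p of 0.412 (limma), so the call on *Lpl* was lost. With quantile normalization it was larger instead, at -0.41 (limma adjusted p = 4.85e-05).

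*Cd36* (ENSMUSG00000002944.16, chr5:17986688-18093799, minus strand) encodes the fatty acid translocase of the plasma membrane. Its level was 2293, 2171 and 2249 TPM in the PPARγ2 K382Q libraries and 1661, 1645 and 1664 TPM in the PPARγ2 K382R libraries. The PPARγ2 K382Q libraries were all higher, by a gap much wider than the spread within either group. The mean was 1.35-fold higher at 2238 ± 62.0 TPM against 1657 ± 10.2 TPM (SD, n = 3 each), a log2 fold change of 0.43 (95% confidence interval 0.36 to 0.50, limma adjusted p = 2.24e-05). *Cd36* and *Lpl* therefore changed places in the order of levels. The ratio of *Cd36* to *Lpl* TPM was 1.32 ± 0.00966 in PPARγ2 K382Q-overexpressing cells and 0.862 ± 0.00900 in PPARγ2 K382R-overexpressing cells (SD, n = 3 each).

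*Slc27a1* and *Slc27a4* encode the fatty acid transport proteins FATP1 and FATP4, which move long-chain fatty acids into the cell and also have acyl-CoA synthetase activity. FATP1 is prominent in fat and muscle, while FATP4 is more widely used. Their coding sequences (1938 and 1929 bases) were identical at 67.4% of aligned bases, and their longest shared run was 26 bases, so that any longer read from one coding sequence differs from the other. Because *Slc27a1* and *Slc27a4* differed several-fold in their response, the sequence upstream of each is shown, from the RefSeq promoter table (build GRCm38.p6) and placed on GRCm39 by exact match: 250 bases before the first listed start of *Slc27a1* (chr8:72021265-72021514, plus strand, 66.4% GC) and of *Slc27a4* (chr2:29692396-29692645, plus strand, 54.4% GC), which end 12 bases and 1 base before the gene start in the tables. Capitals mark the letters CCAAT.
Slc27a1: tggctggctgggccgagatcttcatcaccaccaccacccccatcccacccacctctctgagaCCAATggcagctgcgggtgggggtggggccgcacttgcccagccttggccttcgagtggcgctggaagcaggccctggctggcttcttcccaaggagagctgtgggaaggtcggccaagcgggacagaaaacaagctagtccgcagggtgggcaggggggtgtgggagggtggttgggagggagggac
Slc27a4: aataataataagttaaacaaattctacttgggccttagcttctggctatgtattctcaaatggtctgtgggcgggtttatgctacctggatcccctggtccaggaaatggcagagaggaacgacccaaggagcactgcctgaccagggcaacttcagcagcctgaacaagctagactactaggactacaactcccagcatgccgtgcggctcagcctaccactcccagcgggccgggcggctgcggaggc
The letters CCAAT, searched on both strands of the 250 bases before each start, were present before 2 of the 3 *Slc27a1* starts and not in the *Slc27a4* window. Of all 32851 promoters in the table, searched over the same 250 bases, 33.8% held them. DR1, a direct repeat of AGGTCA with a single spacer base of the kind that PPARγ with RXR can bind, was in 0.0335% of all promoters and in none of the 10 windows found for 7 of the 10 genes. The lone half-site AGGTCA, in 14.0% of all promoters, was found once, on the minus strand from -228 to -223 of the *Cd36* start in the table, which lies inside the gene and 14002 bases from the start of its canonical transcript. *Fabp4*, *Fabp5* and *Lpl* had no entry.

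*Slc27a1* (ENSMUSG00000031808.8, chr8:72021526-72039946, plus strand) was at 93.3, 94.4 and 89.8 TPM in the PPARγ2 K382Q libraries and at 22.6, 20.8 and 20.7 TPM in the PPARγ2 K382R libraries. Every PPARγ2 K382Q library was several times higher than any PPARγ2 K382R library. The mean level was 4.33-fold higher, 92.5 ± 2.39 against 21.4 ± 1.10 TPM (SD, n = 3 each), with a log2 fold change of 2.09 (SE 0.0471, limma adjusted p = 2.51e-07). It was the 17th largest increase among the 15426 tested genes. Mean read depth over its exons was 92.1 to 123 in the first group and 23.0 to 29.0 in the second, so that both levels rested on deep coverage.

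*Slc27a4* (ENSMUSG00000059316.3, chr2:29692646-29707534, plus strand) was at 44.7, 46.8 and 44.5 TPM in the PPARγ2 K382Q libraries and at 41.5, 40.9 and 44.3 TPM in the PPARγ2 K382R libraries. The lowest PPARγ2 K382Q library was just above the highest PPARγ2 K382R library. Its log2 fold change of 0.10 did not pass the test (SE 0.0447, limma adjusted p = 0.0952), and the 95% confidence interval of -0.00116 to 0.21 leaves room for a small increase. It did pass under 5 of 18 alternative settings, with limma adjusted p = 0.00186 to 0.0491. The ratio of *Slc27a1* to *Slc27a4* TPM turned over, from 2.04 ± 0.0393 in PPARγ2 K382Q-overexpressing cells to 0.507 ± 0.0392 in PPARγ2 K382R-overexpressing cells (SD, n = 3 each).

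Among the binding proteins, the rarest paralog showed the largest fold and the most abundant gave the largest difference in transcripts. The FABP proteins are small cytosolic carriers named for the tissues where they were found, FABP3 for heart and muscle, FABP4 for adipocytes and FABP5 for epidermis. The first coding exon of each is shown because it lets the reads of these paralogs be told apart. The exons were read from GRCm39 with the GENCODE M39 annotation for *Fabp3* (chr4:130202571-130202643, plus strand), *Fabp4* (chr3:10273499-10273571, minus strand) and *Fabp5* (chr3:10077700-10077778, plus strand), and capitals mark bases that differ from *Fabp4* at the aligned position.
Fabp3: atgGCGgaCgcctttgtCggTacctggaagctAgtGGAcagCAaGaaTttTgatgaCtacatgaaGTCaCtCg
Fabp4: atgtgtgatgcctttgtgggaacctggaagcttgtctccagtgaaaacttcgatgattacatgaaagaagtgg
Fabp5: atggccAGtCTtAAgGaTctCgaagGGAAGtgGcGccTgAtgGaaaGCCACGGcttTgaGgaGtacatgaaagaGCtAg
In these exons, 21 of 73 bases of *Fabp3* and 32 of 79 bases of *Fabp5* differed from *Fabp4*. Over the whole coding sequence, identity was 66.2% between *Fabp3* and *Fabp4*, 66.1% between *Fabp4* and *Fabp5* and 57.9% between *Fabp3* and *Fabp5*, with shared runs of at most 14 bases. *Fabp4* and *Fabp5* lie 187.481 kb apart in a chromosome 3 cluster of 5 family genes, with *Pmp2*, *Fabp9* and *Fabp12*.

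*Fabp3* (ENSMUSG00000028773.9, chr4:130202388-130209256, plus strand), the carrier of oxidative muscle that brown fat also uses, was at 6.71, 10.3 and 9.17 TPM in PPARγ2 K382Q libraries and at 1.66, 1.06 and 0.675 TPM in PPARγ2 K382R libraries. The groups were far apart, although the spread within each was the widest of the 10 genes in proportion to its level. The mean was 7.69-fold higher, 8.71 ± 1.82 against 1.13 ± 0.497 TPM (SD, n = 3 each), and the log2 fold change on the scale of TPM + 0.5, which understates the change of low genes, was 2.52 (SE 0.241, 95% confidence interval 1.96 to 3.08, limma adjusted p = 0.000103). This was the 11th largest increase of all tested genes. Read depth over its exons was 16.5 to 31.6 against 1.70 to 5.01, so that the PPARγ2 K382R level rested on few reads. Its near-identical processed pseudogene *Fabp3-ps1* (99.2% identity over 399 bases) was at 0.433 to 0.757 TPM against 0 to 0.274 TPM, and adding it left means of 9.26 ± 1.96 and 1.22 ± 0.382 TPM. The study also chose *Fabp3* for PCR, so its call here is not independent evidence of its direction.

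*Fabp4* (ENSMUSG00000062515.4, chr3:10269148-10273636, minus strand), the adipocyte carrier also called aP2, was the most abundant transcript in all 6 libraries. It was at 46394, 46995 and 50292 TPM in the PPARγ2 K382Q libraries and at 38541, 37390 and 37579 TPM in the PPARγ2 K382R libraries. The groups did not overlap, and the gene took 4.79 ± 0.210% of all TPM in PPARγ2 K382Q-overexpressing cells against 3.78 ± 0.0617%. The mean was 1.27-fold higher, 47893 ± 2099 against 37837 ± 617 TPM (SD, n = 3 each), with a log2 fold change of 0.34 (95% confidence interval 0.22 to 0.46, limma adjusted p = 0.00093). The call was lost without the filter on low values, where the same fold change had an adjusted p of 0.272 (limma), and under quantile normalization, which gives the most abundant gene of every library one common value.

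*Fabp5* (ENSMUSG00000027533.11, chr3:10077608-10081667, plus strand), the epidermal carrier that adipocytes and macrophages also use, ran the other way from *Fabp4*. Its level was 1190, 1234 and 1229 TPM in the PPARγ2 K382Q libraries and 1563, 1512 and 1514 TPM in the PPARγ2 K382R libraries. All PPARγ2 K382Q libraries were lower, with means of 1217 ± 24.2 and 1529 ± 28.9 TPM (SD, n = 3 each) and a log2 fold change of -0.33 (SE 0.0294, limma adjusted p = 7.45e-05). *Fabp5* has processed pseudogenes that share most of its sequence, and reads may have been divided between them. The closest, *Gm6166* (98.3% identity over 407 bases), was at 370 ± 21.0 TPM against 515 ± 8.97 TPM. *Fabp5* and its 5 copies together were at 1600 ± 43.5 TPM against 2064 ± 34.2 TPM (SD, n = 3 each), a log2 ratio of means of -0.37, in the same direction as the gene alone.

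Among the activating enzymes, the most abundant synthetase was lower and *Acsl3* was higher. *Acsl1* (ENSMUSG00000018796.14, chr8:46924074-46989088, plus strand) encodes the main long-chain acyl-CoA synthetase of fat cells. It was at 640, 601 and 623 TPM in the PPARγ2 K382Q libraries and at 871, 850 and 862 TPM in the PPARγ2 K382R libraries, with no overlap. The means were 621 ± 19.2 and 861 ± 10.5 TPM (SD, n = 3 each), and the log2 fold change was -0.47 (SE 0.0310, 95% confidence interval -0.54 to -0.40, limma adjusted p = 1.69e-05), the largest decrease of the 10 genes.

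*Acsl3* (ENSMUSG00000032883.16, chr1:78635542-78685460, plus strand), whose product sits on the endoplasmic reticulum and on forming lipid droplets, was at 108, 99.7 and 106 TPM in the PPARγ2 K382Q libraries and at 68.3, 73.2 and 65.9 TPM in the PPARγ2 K382R libraries. All PPARγ2 K382Q libraries were above all PPARγ2 K382R libraries. The mean was 1.51-fold higher, 105 ± 4.52 against 69.2 ± 3.72 TPM (SD, n = 3 each), with a log2 fold change of 0.60 (SE 0.0499, limma adjusted p = 5.3e-05). *Acsl5* (ENSMUSG00000024981.7, chr19:55240370-55286152, plus strand), best known as the synthetase of intestine and liver, was at 40.9, 37.6 and 39.1 TPM against 50.7, 49.2 and 52.5 TPM. It was thus lower in every PPARγ2 K382Q library, with means of 39.2 ± 1.68 and 50.8 ± 1.66 TPM (SD, n = 3 each) and a log2 fold change of -0.37 (SE 0.0459, limma adjusted p = 0.00038). The coding sequences of these synthetases were 58.1 to 64.8% identical, with shared runs of at most 18 bases.

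Seen as families, the paralogs differed between the groups in balance as well as in sum. The 6 SLC27A genes together were at 146 ± 4.04 TPM in PPARγ2 K382Q-overexpressing cells and 69.6 ± 1.38 TPM in PPARγ2 K382R-overexpressing cells, 2.10-fold higher. *Slc27a1* made up 63.4 ± 0.444% of that sum against 30.7 ± 1.44%, and *Slc27a4* 31.1 ± 0.405% against 60.6 ± 1.95%. The leading SLC27A gene was therefore *Slc27a1* in one group and *Slc27a4* in the other. The 5 ACSL genes ran lower in sum, at 838 ± 29.9 TPM against 1068 ± 8.33 TPM, which is 21.5% less. *Acsl1* supplied 74.1 ± 0.359% of it against 80.6 ± 0.362%, and *Acsl3* 12.5 ± 0.142% against 6.48 ± 0.390%. The share of *Acsl5* was 4.67 ± 0.0365% against 4.76 ± 0.136%, with ranges that overlapped (two-sided exact permutation p = 0.7). The 10 FABP genes summed to 49127 ± 2112 TPM against 39379 ± 646 TPM, 1.25-fold higher, with *Fabp4* at 97.5 ± 0.0895% against 96.1 ± 0.0153%, *Fabp5* at 2.48 ± 0.0879% against 3.88 ± 0.0125% and *Fabp3* at 0.0177 ± 0.00360% against 0.00287 ± 0.00121% (SD, n = 3 each throughout). Of 10 shares tested, the other 9 did not overlap between groups and gave p = 0.1, the smallest value that an exact permutation test of 3 against 3 libraries allows (adjusted p = 0.111 over the 10 shares). The ratio of *Acsl3* to *Acsl1* TPM was 0.168 ± 0.00236 against 0.0804 ± 0.00511, and that of *Acsl5* to *Acsl1* 0.0630 ± 0.000793 against 0.0590 ± 0.00165 (SD, n = 3 each). All 8 ratios computed, those of *Cd36* to *Lpl* and of *Slc27a1* to *Slc27a4* included, were without overlap between the groups, at the same smallest exact permutation p of 0.1.

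**Figure D3:**
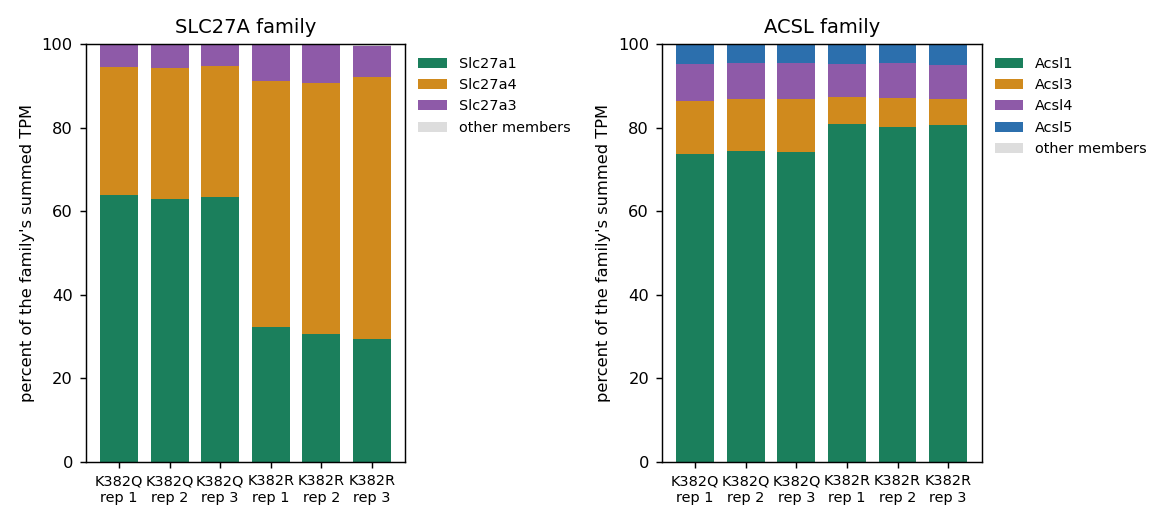
Share of each paralog in the summed TPM of the SLC27A family (left) and of the ACSL family (right) in each library, in percent. *Slc27a1* fills 63.0 to 63.9% of the SLC27A bars with PPARγ2 K382Q against 29.3 to 32.2% with PPARγ2 K382R, whereas *Acsl1* remains the largest share of every ACSL bar.

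In PPARγ2 K382Q-overexpressing cells the order of mean TPM was *Fabp4*, *Cd36*, *Lpl*, *Fabp5*, *Acsl1*, *Acsl3*, *Slc27a1*, *Slc27a4*, *Acsl5* and *Fabp3*. In PPARγ2 K382R-overexpressing cells it was *Fabp4*, *Lpl*, *Cd36*, *Fabp5*, *Acsl1*, *Acsl3*, *Acsl5*, *Slc27a4*, *Slc27a1* and *Fabp3*. No neighbours in either order had overlapping ranges over their 3 libraries. Without *Fabp4*, the other 9 genes took 0.606 ± 0.00984% of all TPM against 0.615 ± 0.00486% (SD, n = 3 each).

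The other genes of the pathway were described from a list of 54 genes, of which 36 were tested. At an adjusted p under 0.05 (limma), 16 of the 36 were higher in PPARγ2 K382Q-overexpressing cells and 9 were lower, beside 11.1% and 36.9% of all tested genes, and their median log2 fold change was 0.09. With median-ratio scaling the counts were 20 higher and 6 lower, beside 19.9% and 20.4% of all tested genes, and with quantile normalization they were 19 and 6, beside 19.1% and 21%. Both counts of higher genes include *Fabp1*, whose passage of the filter is described below. *Fabp1* was also among the genes fitted in the alternatives that follow. A replicate block gave 15 higher and 9 lower, and leaving out each library in turn gave 15 higher and 9 to 10 lower. The carrier gene *Fabp1*, called a DEG, passed the filter on low values only through the PPARγ2 K382Q libraries, and the other 35 tested genes held 15 that were higher, 9 that were lower and 3 DEGs, which were the receptor gene *Ffar4*, the lipase gene *Lipg* and the lipoprotein receptor gene *Vldlr*. *Ffar4*, which encodes the long-chain fatty acid receptor GPR120, was at 42.5 ± 2.34 TPM against 12.6 ± 0.562 TPM (SD, n = 3 each), with a log2 fold change of 1.71 (SE 0.0588, limma adjusted p = 9.61e-07). Like *Fabp3*, it was chosen by the study for PCR, so this call is not independent evidence of its direction. The short-chain fatty acid receptor gene *Ffar2* was also higher (0.83), and the other 2 receptor genes of the list were too low to test.

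In the LPL system 4 of 7 tested genes were higher and none lower, where 11.1% and 36.9% of all tested genes were. With median-ratio scaling 6 were higher and 0 lower, beside 19.9% and 20.4% of all tested genes. With quantile normalization 5 were higher and 1 lower, beside 19.1% and 21%. *Vldlr*, a lipoprotein receptor that works beside LPL, was at 95.5, 90.2 and 88.1 TPM against 44.5, 46.0 and 41.4 TPM, a log2 fold change of 1.05 (limma adjusted p = 4.12e-06). *Lipg*, the endothelial lipase gene, was at 13.8 ± 0.983 TPM against 5.85 ± 0.394 TPM (SD, n = 3 each), a log2 fold change of 1.17 (limma adjusted p = 2.21e-05). The remaining 2 were *Lmf1*, whose product matures the lipase in the endoplasmic reticulum (log2 fold change 0.66), and *Apoc3*, which encodes an apolipoprotein inhibitor of LPL (0.61). *Angptl4*, which encodes the inhibitor that unfolds LPL, was abundant at 1415 ± 63.4 against 1400 ± 10.8 TPM (SD, n = 3 each), with a log2 fold change of 0.01 whose 95% confidence interval was -0.07 to 0.10, and its direction depended on scaling, with 0.17 by median-ratio scaling (limma adjusted p = 0.0147) and -0.14 by quantile normalization (limma adjusted p = 0.0105). *Sel1l*, whose product works with that of *Lmf1*, had a log2 fold change of 0.09 that did not pass (limma adjusted p = 0.0904), and passed with median-ratio scaling (0.24, limma adjusted p = 0.00116) and with quantile normalization (0.25, limma adjusted p = 0.00104). *Gpihbp1*, which encodes the endothelial anchor of LPL, was under the filter.

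Genes that work with CD36 or take up fatty acids and lipoproteins beside it numbered 7 tested, of which 2 were higher and 3 lower. Of all tested genes, 11.1% were higher and 36.9% lower, so the count of lower genes was near that share. With either of the other scalings 3 were higher and 1 lower. The shares of all tested genes were then 19.9% and 20.4% with median-ratio scaling and 19.1% and 21% with quantile normalization. The scavenger receptor gene *Scarb1* (log2 fold change 0.21) and the palmitoyltransferase gene *Zdhhc5* (0.09, limma adjusted p = 0.0425) were higher. *Got2*, which encodes the mitochondrial aspartate aminotransferase also described as a plasma membrane fatty acid binding protein, was lower at 221 ± 6.11 against 308 ± 9.78 TPM (SD, n = 3 each; log2 fold change -0.48, limma adjusted p = 2.77e-05). The caveolin gene *Cav1* (-0.16) and the lysosomal receptor gene *Scarb2* (-0.18) were called lower as well, but were at -0.03 and -0.05 relative to the median of all genes. Both calls were lost with median-ratio scaling (limma adjusted p = 0.840 and 0.503) and with quantile normalization (limma adjusted p = 0.127 and 0.249). The depalmitoylating enzyme gene *Lypla1*, at 0.03 and not called, passed as higher with these scalings (0.18, limma adjusted p = 0.0236, and 0.20, limma adjusted p = 0.0173). Of the other SLC27A genes, *Slc27a3* was the only one of 4 that was tested, and it was higher (0.43). Among the 4 tested genes of the other FABP proteins, *Fabp7* (-0.88) and *Pmp2* (-0.87) were lower. *Fabp1*, the liver carrier, was at 0.684, 0.658 and 0.711 TPM against 0, 0.193 and 0 TPM. It was tested only because all 3 PPARγ2 K382Q libraries were above the minimum of 0.5 TPM, while all 3 PPARγ2 K382R libraries were under it, so its call is not counted as support.

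After activation, acyl-CoA is bound by acyl-CoA binding proteins or cleaved again by thioesterases. *Dbi*, which encodes the acyl-CoA binding protein ACBP, was the most abundant gene of the list at 1988 ± 56.4 against 1492 ± 9.26 TPM (SD, n = 3 each), a log2 fold change of 0.41 (limma adjusted p = 2.82e-05), whereas *Acbd3* was lower (-0.29) and the other 3 tested genes of that group did not pass. *Acbd4*, at 0.25, passed as higher with median-ratio scaling (0.40, limma adjusted p = 0.0467) and with quantile normalization (0.41, limma adjusted p = 0.0382). Of 8 tested thioesterase genes, 5 were higher, which were those of the cytosolic enzyme *Acot1* (0.88) and the mitochondrial enzyme *Acot2* (0.80) and *Acot13* (0.30), *Acot8* (0.32) and *Them4* (0.37), and *Acot7* was lower (-0.29). Of all tested genes, 11.1% were higher and 36.9% lower. *Acot2* stood at 112 ± 3.11 against 63.9 ± 1.92 TPM (SD, n = 3 each; limma adjusted p = 3.48e-06). Both tested genes of the other acyl-CoA synthetases, *Acsl4* (-0.27) and *Acsbg1* (-0.32), were called lower. The call on *Acsl4* was lost with median-ratio scaling (-0.11, limma adjusted p = 0.0806) and with quantile normalization (-0.11, limma adjusted p = 0.102), and that on *Acsbg1* with quantile normalization (-0.15, limma adjusted p = 0.0579).

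**Figure D4:**
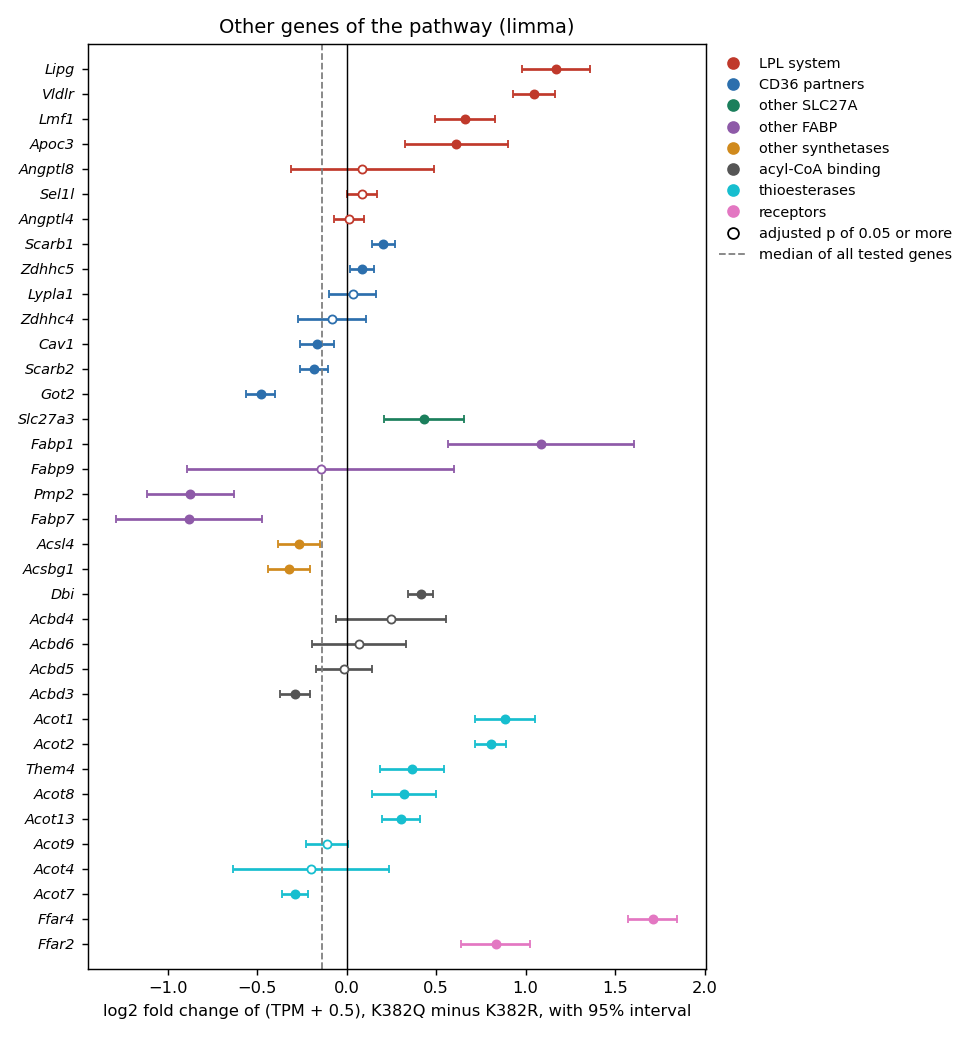
log2 fold change of (TPM + 0.5) in PPARγ2 K382Q- over PPARγ2 K382R-overexpressing cells for the 36 tested genes of the pathway list, with 95% confidence intervals from limma, grouped by role. The receptors and the LPL system lie at or right of 0, with *Ffar4* at 1.71, and both other synthetases lie left of 0, although *Acsl4* lost its call under both other scalings and *Acsbg1* under quantile normalization.

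The direction of the members' changes was the same under the 18 alternative settings tried (17 for *Fabp4*), apart from *Fabp4* at 0 under quantile normalization. Other filters, no intensity trend and the replicate block leave a fold change as it is, so they bear on the calls and not on direction. *Slc27a1* had log2 fold changes of 2.02 to 2.24 and *Fabp3* of 2.12 to 2.90, and both remained DEGs under each alternative setting. *Cd36*, *Acsl3*, *Fabp5*, *Acsl1* and *Acsl5* kept their calls, with ranges of 0.22 to 0.59, 0.52 to 0.75, -0.46 to -0.18, -0.54 to -0.32 and -0.40 to -0.20. The calls that moved were those of *Lpl*, *Fabp4* and *Slc27a4*, as given with each gene, and their ranges were -0.41 to -0.03, 0 to 0.49 and 0.08 to 0.27.

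**Figure D5:**
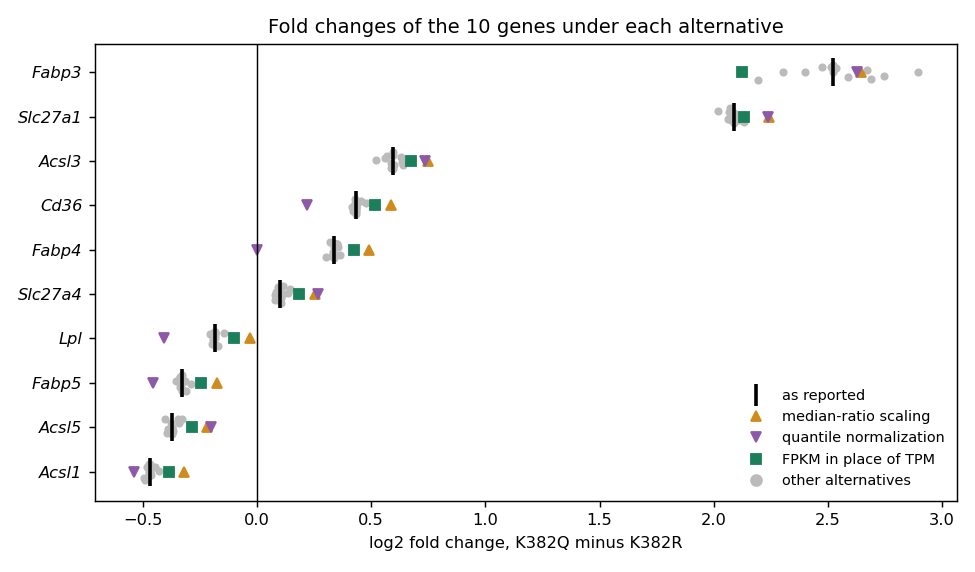
log2 fold change of each of the 10 genes as reported (black bar) and under each alternative setting (points), in PPARγ2 K382Q- over PPARγ2 K382R-overexpressing cells. *Fabp3* spreads from 2.12 to 2.90, *Lpl* comes closest to 0 with median-ratio scaling at -0.03, and *Fabp4* is at 0 with quantile normalization.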

How the data were processed

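The 6 libraries were prepared from total RNA and sequenced as paired-end reads. According to the methods and the submitters' processing notes, the authors removed adapters with TrimGalore, aligned reads to GRCm39 with HISAT2 and quantified genes with StringTie; the annotation release is not given in the sources used here. The authors deposited coverage (mean read depth per base, a signal that is not normalized), FPKM and TPM values for each gene and library. No counts were used, so the count-based test of the study was replaced by limma (version 3.58.1, R 4.3.3) with an intensity trend on log2(TPM + 0.5). Genes needed at least 0.5 TPM in at least 3 libraries. Calls were two-sided at a Benjamini-Hochberg adjusted p under 0.05 over all 15426 genes, and DEGs also needed a fold over 2, the thresholds of the study. The fit was tested on simulated data. The number of libraries limits precision, and no counting error could be given. Shares were compared with exact permutation tests. Near-identical copies shared at least 90% of at least 150 bases. Pathway genes were named where they were DEGs or had a mean of at least 50 TPM and passed the test, and the others named complete small counts or were chosen after their values were seen. The genes and lists were chosen with earlier results of these data known. Figures were drawn with matplotlib 3.10.9. The labels give no batch, and replicate numbers did not pair the libraries. Alternatives were other pseudocounts, filters, scalings and weights, FPKM, a replicate block, a fold of 1.5 and each library left out. Coverage in place of TPM, and TPM without *Fabp4* and mitochondrial genes, were added after seeing the data.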

Additional observations from a re-analysis of the deposited data

How the results depend on the processing

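Of 364 comparisons of a value with an alternative, 353 were kept and none reversed. Kept meant the same direction and side of the threshold, for counts a size within 1.5 times, and for shares a change within the larger group SD. Some could not differ, since FPKM leaves a share within a library as it is. Other filters, no intensity trend and the replicate block likewise leave a fold change as it is. DEGs numbered 196 higher and 403 lower. With a fold over 1.5 they were 577 and 1287, and with FPKM in place of TPM 152 and 227; the cause of the latter was not tested. The split between directions depended on scaling, with 287 higher and 296 lower by median-ratio scaling and 277 and 306 by quantile normalization. *Lpl* lost its call with median-ratio scaling, at -0.03, and *Fabp4* with no filter on low values and with quantile normalization. *Slc27a4* passed with FPKM (0.18), median-ratio scaling (0.25), quantile normalization (0.27), without PPARγ2 K382R replicate 3 (0.14) and without *Fabp4* and mitochondrial genes (0.15). Leaving out each library in turn gave 197 to 218 DEGs higher and 404 to 430 lower. The replicate numbers did not pair the libraries, since correlations of same-numbered deviations were -0.0177, 0.0507 and 0.0223, and a fit with the replicate block gave 197 DEGs higher and 407 lower and the same calls for all 10 genes. At the level of *Fabp3* in PPARγ2 K382R-overexpressing cells, read depth limits the precision of its fold.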
